A study of Rattus norvegicus with 10 samples.

Results

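The soy protein diet was set against the other diets of the series in mammary gland RNA. The rats were female Sprague-Dawley animals, studied on postnatal day 50. The comparison used all 10 arrays of the series: 4 arrays of the SPI diet against 6 arrays of the other diets, of which 3 were CAS and 3 were GEN. Arrays were assigned from the sample titles alone and are named by diet and number (SPI 2, 3, 4 and 5, CAS 1, 2 and 3, GEN 1, 3 and 5). All rats ate a purified diet, and the RNA on an array was a pool of 2 animals on 1 diet. GEN is genistein, a soy isoflavone and a ligand of estrogen receptors. No label explains SPI and CAS or names the protein of the GEN diet. Known of the study from outside its labels is that SPI is soy protein isolate, CAS is casein, and GEN a casein diet with genistein added. On that reading the comparison asks what went with soy protein beyond casein and beyond casein with genistein. Soy protein isolate commonly carries isoflavones itself, and the labels give no isoflavone content of the SPI diet.

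The labels call the RNA source epithelial cells, while the labelling protocol speaks of the fourth mammary gland and the design text also of colon. Luminal markers had signal on every array, and so did markers of other tissues: 15 of 24 adipocyte genes and 16 of 22 endothelial and pericyte genes lay above the limit for dim probe sets. So did 9520 of all 15866 probe sets, since the limit is a rank within these arrays. Such counts do not show that a tissue was present. The values were read as those of whole mammary gland, after the labelling protocol. In such bulk RNA, fewer cells of a type and less RNA per cell cannot be told apart. The labels speak of replicate labelled targets from a pool without saying whether arrays had a pool in common, so the spread between arrays may be in part technical. Arrays had median signals of 222.8 to 256.7 in the arbitrary units of MAS5, which scales every array to the same overall level. The ratio of the beta-actin 3' to 5' probe sets, which is high where transcripts are short, was 7.77 on SPI 4, 2.94 to 5.22 on the other SPI arrays, 4.06 to 5.04 on CAS and 2.83 to 5.15 on GEN. The lists of luminal, milk and endothelial genes are given with and without SPI 4. The median correlation of log2 signals across probe sets was 0.956 within the SPI arrays (6 pairs), 0.953 between an SPI array and another (24 pairs) and 0.951 among the others (15 pairs).

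At this age the virgin rat mammary gland is a tree of ducts and terminal buds in a pad of fat and fibrous stroma. Its luminal cells line the ducts and can make milk proteins under prolactin and Stat5, its basal cells contract, and macrophages and mast cells lie along the ducts. Secreted lectins of the Reg3 family bind bacterial surfaces and are known best from gut and pancreas, where Stat3 drives their transcription.

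Reg3b was the 1 probe set that passed the adjusted test, so its promoter is shown with those of Lalba and Wap, milk protein genes whose pooled difference was also negative. The Wap difference was -2.06 against GEN but -0.62 against CAS, where the arrays overlapped. The stretches are the 250 bases before the RefSeq gene start in build GRCr8: chr4:112419526-112419775 on the plus strand for Reg3b, chr7:131507073-131507322 on the minus strand for Lalba and chr14:85719160-85719409 on the minus strand for Wap. Capitals mark matches, on either strand, to TTCNNNGAA, the spaced palindrome that STAT factors bind, and to TATAAA, the TATA box.
Reg3b: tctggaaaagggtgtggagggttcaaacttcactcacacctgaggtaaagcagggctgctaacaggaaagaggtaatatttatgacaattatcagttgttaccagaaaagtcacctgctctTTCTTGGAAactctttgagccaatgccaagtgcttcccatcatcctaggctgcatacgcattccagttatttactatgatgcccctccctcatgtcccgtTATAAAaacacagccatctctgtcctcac
Lalba: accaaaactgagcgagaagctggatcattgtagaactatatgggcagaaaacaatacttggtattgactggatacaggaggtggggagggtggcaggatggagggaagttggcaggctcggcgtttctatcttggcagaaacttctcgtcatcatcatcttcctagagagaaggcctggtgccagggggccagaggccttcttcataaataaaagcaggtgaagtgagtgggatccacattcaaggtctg
Wap: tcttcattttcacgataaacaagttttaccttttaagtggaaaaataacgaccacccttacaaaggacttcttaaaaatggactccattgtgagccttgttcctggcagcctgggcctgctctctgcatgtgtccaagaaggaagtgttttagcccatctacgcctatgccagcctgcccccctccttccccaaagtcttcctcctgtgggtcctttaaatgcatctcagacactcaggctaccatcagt
The Reg3b stretch held 1 match to TTCNNNGAA that begins at base -129 and 1 to TATAAA at base -29, counted back from the start; the motifs do not overlap. Of 33469 promoters in the table, 7.67% held TTCNNNGAA and 12.9% held TATAAA in the same window. The Lalba and Wap windows held 0 matches to either motif. A match is a description of the letters and not of a bound site.

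Reg3b, a secreted antimicrobial lectin, fell on the SPI diet. Its signals were 146.5, 75.0, 157.7 and 90.8 on SPI 2, 3, 4 and 5, against 427.1, 302.0 and 474.3 on the CAS arrays and 354.3, 327.6 and 448.1 on the GEN arrays. The highest SPI array lay below the lowest of the 6 others, and CAS and GEN stood at like levels. The mean signal over the 4 SPI arrays was 118 ± 40.7 (SD, n = 4). Over the 6 others it was 389 ± 70.4 (SD, n = 6), which is 3.42-fold above SPI on the scale of log2 means. The log2 difference was -1.78 ± 0.23 (SE), with an adjusted p of 0.037 by limma with Benjamini-Hochberg adjustment over 9520 probe sets. Against each diet alone it was -1.81 for CAS and -1.74 for GEN. The SPI signals all lay below 162, the geometric mean signal of the dimmest probe set tested. Reg3b thus passed the dim filter only through its CAS and GEN arrays. Both the call and the size of the difference rest on dim SPI values.

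The Reg3b call depended on single arrays and on the processing. It was lost when any of SPI 3, SPI 5, CAS 1, CAS 3, GEN 1, GEN 3 or GEN 5 was left out, with adjusted p-values by limma of 0.094 to 0.216, and kept without SPI 2, SPI 4 or CAS 2. It was also lost with no filter on dim probe sets (adjusted p = 0.147, limma), with the lowest 20% left out (0.0522), with quantile normalization (0.0562), median centring (0.0502), no moderation of the variances (0.857) or the actin ratio as a covariate (0.0536). The replicate block lost it too, as did leaving out both SPI 4 and GEN 5. The call held in 7 of the 22 alternatives in which Reg3b was tested. The log2 difference itself ran from -1.96 to -1.58 and kept its sign in all 22.

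Over all probe sets, 1 of 9520 passed the adjusted test (0.0105%). At an unadjusted p under 0.05 there were 590 probe sets, 243 higher on SPI (2.55%) and 347 lower (3.64%). Counted by gene, with the brightest probe set standing for each of 7119 genes, 191 were higher (2.68%) and 254 lower (3.57%). This split depended on the scaling and on the dim filter. Of the unadjusted calls 41.2% were higher, and 69.4% (471 higher against 208 lower) when each array was centred on its median. With no dim filter 35.3% were higher, and with the lowest 60% of probe sets left out 53.3% (204 higher against 179 lower). Of all genes, 49.8% stood higher on SPI and 50.2% lower, and the median log2 difference was -0.00065. Counts of list members below are to be read beside these shares and, at an unadjusted p under 0.05, beside 2.68% higher and 3.57% lower. The median half-width of a 95% interval was 0.35 log2 units. Smaller differences were thus mostly not detectable with this number of arrays, even at an unadjusted p under 0.05. The adjusted test asked for larger ones.

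The pooled contrast was made of unlike parts. Of the 590 unadjusted calls, 113 differed in the same direction from CAS and from GEN, each at an unadjusted p under 0.05. A further 281 had such a p against GEN only, 141 against CAS only and 55 against neither, and 69 of the 590 had one between GEN and CAS. SPI was higher than both diets at 32 probe sets (0.336%) and lower than both at 81 (0.851%). The 4 SPI arrays lay wholly above the 6 others at 36 probe sets (0.378%) and wholly below at 59 (0.62%). Such separation of 4 arrays from 6 also arises by chance. How often was not worked out here, so these counts are not read as more than chance would give. Arrays said below not to overlap are therefore a description and not a test. SPI against CAS and SPI against GEN share the SPI arrays and are given below only side by side. Neither had a probe set past the adjusted threshold (lowest adjusted p by limma of 0.17 and 0.132), with 459 and 757 at an unadjusted p under 0.05. GEN against CAS, which tests whether the difference from CAS and that from GEN are unlike, also had 0 past the threshold (lowest adjusted p by limma of 0.0642, with 561 unadjusted). Where values against CAS and against GEN are unlike below, that is a description.

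**Figure D1:**
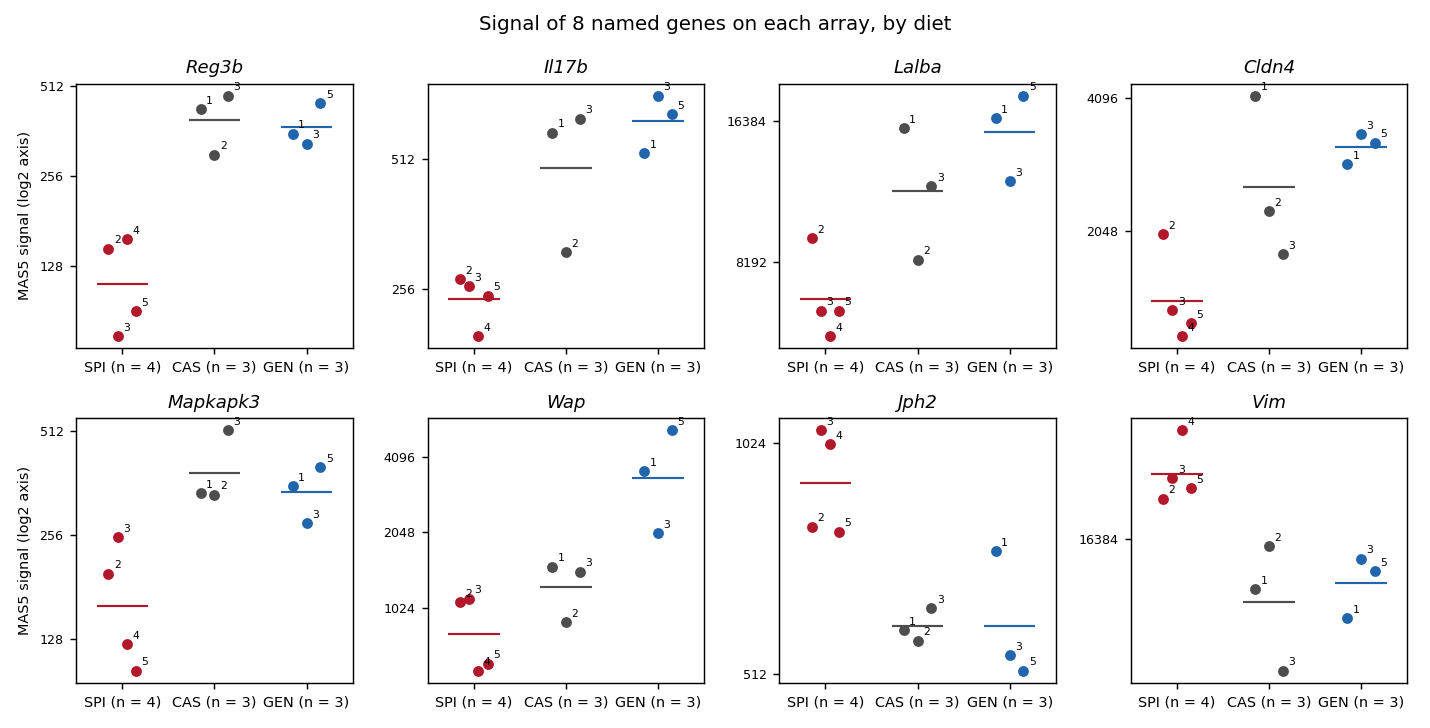
MAS5 signal on a log2 axis for 8 named genes, 1 panel a gene, with each array as a point marked by its number and a bar at the geometric mean of each diet (SPI n = 4, CAS n = 3, GEN n = 3). Reg3b, Il17b and Mapkapk3 have all SPI arrays below all others, Jph2 and Vim all above, while Wap separates GEN from both other diets.

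Among the secreted and immune genes with the lowest differences, none but Reg3b passed the adjusted test. Il17b, a cytokine of the interleukin-17 family, had signals of 269.2, 258.8, 198.4 and 246.1 on SPI, of 590.2, 310.6 and 636.1 on CAS and of 528.2, 719.2 and 651.7 on GEN. All SPI arrays were below all others, and CAS 2 was the nearest of these. The log2 difference was -1.20 ± 0.20 (SE; adjusted p = 0.179, limma), -1.02 against CAS and -1.38 against GEN. Without CAS 2 it was -1.36 and passed, at an adjusted p of 0.00906 by limma.

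The lowest difference of a gene whose arrays did not overlap was that of RT1-CE16, a class I histocompatibility antigen that presents peptides to T cells. Its signals were 204.3, 54.8, 56.1 and 33.9 on SPI, 413.6, 326.4 and 527.2 on CAS and 211.0, 279.4 and 375.7 on GEN, so that SPI 2 came close to GEN 1. The log2 difference was -2.33 ± 0.40 (SE; adjusted p = 0.179, limma). RT1-Bb, a class II antigen chain, had the lowest difference of all named genes, -2.44 ± 0.62 (SE; adjusted p = 0.533, limma). It measured 69.0, 100.4 and 95.9 on SPI 3, 4 and 5 but 875.8 on SPI 2, against 339.0 to 2375.1 on the others. Without SPI 2, RT1-CE16 (-2.86, adjusted p = 0.00132) and RT1-Bb (-3.27, adjusted p = 0.0105) passed by limma, together with a probe set that has no gene symbol (1371171_at). For both RT1 genes SPI 2 was the highest SPI array. Their signals on SPI 3, 4 and 5 all lay below the limit of 162. Without SPI 2 both thus passed the dim filter only through the CAS and GEN arrays. A further tested probe set of RT1-Bb had a difference of 0.03, and that of RT1-CE16 carries the maker's mark for probes shared with like transcripts, so the class I and II values are uncertain as to the gene. RT1-T24-3, another class I gene, stood higher on SPI, at 2686.1 to 2863.1 against 1642.1 to 2233.4 (0.50 ± 0.11 SE; adjusted p = 0.349, limma).

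The list of antigen presentation genes did not hold RT1-T24-3. Of its 18 tested genes, 13 were lower and 5 higher, with a median of -0.19. At an unadjusted p under 0.05 there were 4 lower and 0 higher, where 3.57% and 2.68% of all genes were. The class II genes RT1-Da (-0.69) and RT1-DMa (-0.51) differed more from CAS (-1.14 and -0.67) than from GEN (-0.25 and -0.34). The interferon response list had 17 of 24 genes lower and a median of -0.18, which was -0.08 without SPI 2 and -0.03 with the lowest 60% of probe sets left out. Irf7, the factor that amplifies type I interferon, did not overlap: 1109.8 to 1644.3 on SPI against 1658.4 to 2648.0 on the others (-0.55 ± 0.16 SE; adjusted p = 0.601, limma). Of the 8 tested mucosal defence genes, 6 were lower, and apart from Reg3b none had an unadjusted p under 0.05: the neutrophil lipocalin Lcn2 stood at -0.44 ± 0.32 (SE), and complement C3 at 0.50 ± 0.31 (SE).

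Luminal epithelial genes were lower on SPI as a list, with no member past the adjusted test. Of 21 listed genes 14 were tested, and 14 of 14 had a negative difference. At an unadjusted p under 0.05 there were 6 lower and 0 higher, where 3.57% and 2.68% of all genes were, and the median was -0.46. Cldn4, a claudin of tight junctions, had signals of 2016.5, 1360.7, 1191.2 and 1273.3 on SPI, 4136.0, 2275.7 and 1820.1 on CAS and 2897.2, 3388.8 and 3240.2 on GEN. SPI 2 was above CAS 3, the only crossing. The log2 difference of Cldn4 was -1.0 ± 0.21 (SE; adjusted p = 0.333, limma). The junction protein Cdh1 (-0.94, and -0.64 without SPI 4), the adhesion molecule Epcam (-0.73) and the keratins Krt8 (-0.61) and Krt18 (-0.49) followed.

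This list moved with the array of highest actin ratio. The mean log2 signal of the 14 luminal genes was 9.41 on SPI 4 and 10.05 to 10.50 on the other SPI arrays, against 10.07 to 10.66 on CAS and 10.55 to 10.98 on GEN. Without SPI 4 the median was -0.24, with 14 of 15 members lower and 3 at an unadjusted p under 0.05. Without both SPI 4 and GEN 5, the arrays of highest and lowest ratio, it was -0.13, with 12 of 15 lower. With the actin ratio as a covariate it was -0.30, with 14 of 14 lower. The list differed less from CAS (median -0.30) than from GEN (-0.69).

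Milk genes stood lower on SPI than on GEN, and only some of them also lower than on CAS. Lalba, the alpha-lactalbumin of lactose synthesis, had signals of 9217.9, 6463.4, 5707.0 and 6461.6 on SPI, 15784.0, 8299.5 and 11895.2 on CAS and 16574.9, 12180.9 and 18514.5 on GEN. SPI 2 stood above CAS 2, and otherwise every SPI array lay below every other array. The log2 difference was -0.97 ± 0.19 (SE; adjusted p = 0.238, limma), -0.76 against CAS and -1.18 against GEN, and without CAS 2 it was -1.09 and passed (adjusted p = 0.0461, limma). Xdh, the xanthine dehydrogenase of milk fat droplets, stood at -0.55 ± 0.16 (SE; adjusted p = 0.601, limma), with -0.60 against CAS and -0.49 against GEN.

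Wap, the whey acidic protein, had signals of 1079.3, 1111.7, 573.5 and 611.5 on SPI, 1489.1, 894.0 and 1423.8 on CAS and 3585.6, 2026.7 and 5212.3 on GEN. GEN stood apart from both other diets, and SPI overlapped CAS. The pooled log2 difference of -1.34 ± 0.27 (SE; adjusted p = 0.333, limma) held -0.62 against CAS and -2.06 against GEN, and GEN exceeded CAS by 1.44 ± 0.35 (SE; adjusted p = 0.766, limma). The caseins Csn2 and Csn3 were alike in this: -0.01 and -0.08 against CAS, -1.35 and -0.96 against GEN. Over the 13 tested of 20 listed milk genes, 11 were lower and 2 higher with a median of -0.35. That median was 0.03 against CAS and -0.60 against GEN. Without SPI 4 the pooled median was -0.14 with 9 of 13 lower, and without SPI 4 and GEN 5 it was -0.07 with 8 of 13 lower.

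Of 14 tested basal and myoepithelial genes, 9 were lower and 5 higher. The keratins Krt14 (-0.45) and Krt5 (-0.37) and the laminin chain Lama3 (-0.51) stood lower, and the contractile genes Mylk (0.26), Myh11 (0.42) and Acta2 (0.18), which vessels share, stood higher, and of these only Lama3 had an unadjusted p under 0.05. The median of the 14 genes was -0.29, but 0.06 without SPI 4 and GEN 5.

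The estrogen and progesterone receptors gave no test. The probe sets of Esr1, Esr2 and Pgr had geometric mean signals of 13.2, 8.42 and 120, all below the limit of 162. Of 8 tested hormone targets and cofactors, 5 were higher, with a median of 0.15. With no filter on dim probe sets, 8 of 17 were higher and the median was -0.03. Areg, an EGF family ligand that estrogen induces in the ducts, stood at 0.44 ± 0.18 (SE; adjusted p = 0.762, limma), with 539.7 to 955.8 on SPI and 356.8 to 617.8 on the others. The 6 prolactin and Stat5 genes had a median of -0.06, which was 0.12 without SPI 4. The prolactin receptor Prlr stood at -0.52 ± 0.27 (SE) and Stat5a at -0.11 ± 0.14 (SE), with none of the 6 at an unadjusted p under 0.05. Without SPI 5 the Prlr value was -0.24, and without SPI 2 it was -0.85. In the growth factor list Igfbp2, an IGF binding protein, stood at -0.70 (-0.45 without SPI 4), and Igfbp7 at 0.17 without overlap (18337.4 to 21057.7 against 15624.8 to 18320.3).

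**Figure D2:**
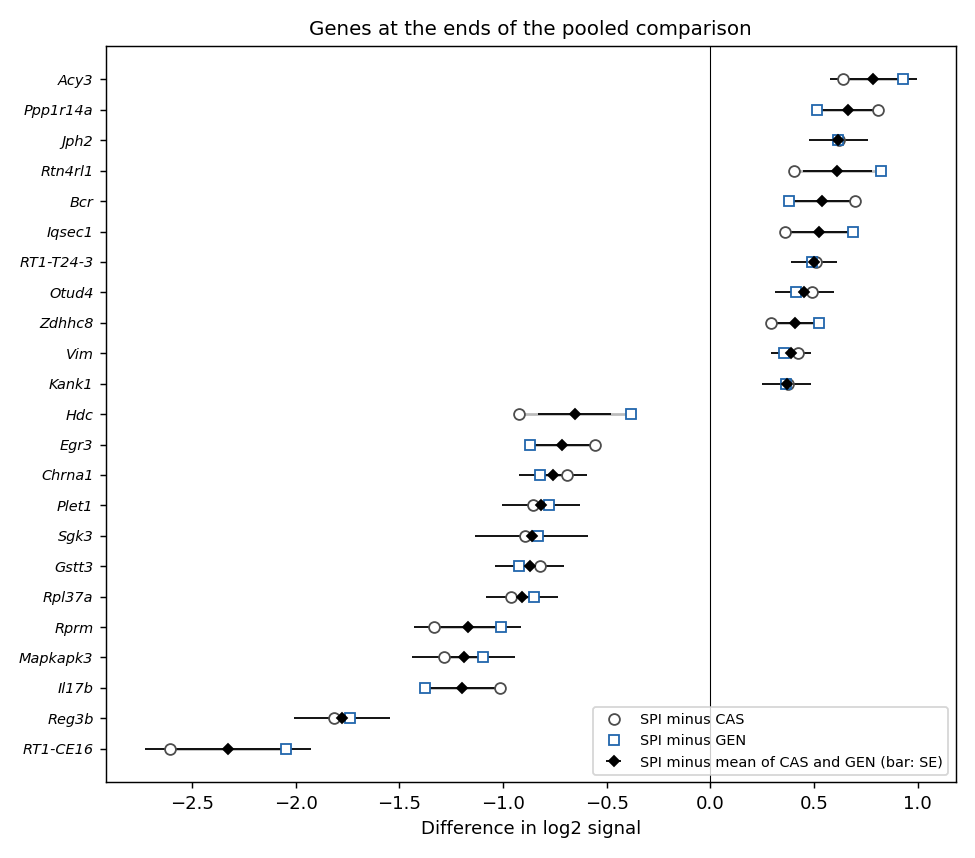
Log2 differences of the 12 lowest and 11 highest genes that met the naming rule: black diamonds are SPI minus the mean of CAS and GEN with the standard error, open circles SPI minus CAS and open squares SPI minus GEN. Every gene has both single-diet differences on the same side of 0, as non-overlapping arrays require, and the 11 highest reach only 0.79 against -2.33 for the lowest.

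Genes at the ends of the comparison that belong to no epithelial list were mostly lower and dim. Mapkapk3, a stress kinase downstream of p38, had signals of 198.4, 253.1, 124.1 and 103.8 on SPI against 335.4 to 515.0 on CAS and 277.3 to 402.5 on GEN (-1.19 ± 0.25 SE; adjusted p = 0.333, limma). Rprm, a p53 target that halts the cell cycle, stood at -1.17 ± 0.26 (SE) and Gstt3, a glutathione transferase, at -0.87 ± 0.17 (SE; adjusted p = 0.238, limma). The SPI signals of Gstt3 were 160.6 to 181.9, against 219.5 to 362.3 on the others, and without CAS 2 its adjusted p was 0.0461 by limma. Sgk3 (-0.86), the progenitor marker Plet1 (-0.82), the acetylcholine receptor chain Chrna1 (-0.76), the immediate early factor Egr3 (-0.72) and the histamine enzyme Hdc (-0.65) completed the 12 lowest. For Rprm, Chrna1 and Hdc all SPI signals lay below the limit of 162, so these genes passed the dim filter only through the CAS and GEN arrays. Ptges, the prostaglandin E synthase, had differences of -1.14 against CAS and -1.03 against GEN but overlapped, at 425.4 on SPI 5 against 400.2 on CAS 2 and 403.9 on GEN 1, and its further probe set stood at -0.59.

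Rpl37a, a protein of the large ribosomal subunit, was the brightest of the 12. Its signals were 12456.5, 9421.5, 12233.7 and 10563.4 on SPI, 24589.7, 20488.4 and 20008.7 on CAS and 25035.8, 25144.8 and 12784.4 on GEN. GEN 5 lay next to the SPI arrays, and the rest of the CAS and GEN arrays lay far above them. The log2 difference was -0.91 ± 0.17 (SE; adjusted p = 0.238, limma), and -1.07 without GEN 5 (adjusted p = 0.00597). The list of ribosomal proteins did not move with it: of 38 tested, Rpl37a among them, 24 were higher and 14 lower with a median of 0.03, and Rpl37a was the only 1 at an unadjusted p under 0.05.

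At an unadjusted p under 0.01, 11 named genes stood higher without overlap, RT1-T24-3 among them, and none passed the adjusted test. Acy3, an aminoacylase, was the first at 0.79 ± 0.21 (SE; adjusted p = 0.566, limma), with 287.6 to 423.7 on SPI against 147.4 to 278.0 on the others. Jph2, which ties the surface membrane to calcium stores in muscle, had 796.4, 1063.6, 1020.9 and 785.3 on SPI, 583.8, 566.0 and 623.9 on CAS and 740.5, 542.1 and 517.0 on GEN (0.62 ± 0.14 SE; adjusted p = 0.412, limma). Ppp1r14a, an inhibitor of myosin phosphatase in smooth muscle, stood at 0.66. Vim, the intermediate filament of mesenchymal cells, was among the brightest, with 17951.7 to 20975.3 on SPI against 12117.4 to 16113.3 on the others (0.39 ± 0.10 SE; adjusted p = 0.507, limma). The rest were Rtn4rl1 (0.61), Bcr (0.54), Iqsec1 (0.52, with a further tested probe set at 0.13), Otud4 (0.45), Zdhhc8 (0.41) and Kank1 (0.37). Beside these, Nkd1, an inhibitor of Wnt signalling, stood at 0.73, the intermediate filament gene Synm at 0.67 and the hyaluronidase Hyal3 at 0.61, apart from each diet at an unadjusted p under 0.05 but with overlap, and a further probe set of Nkd1 stood at -0.01.

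A probe set without a gene symbol, 1379497_at, had the highest difference among those given here, 1.82 ± 0.32 (SE; adjusted p = 0.179, limma), and was singled out after its values were seen. Its signals were 4305.8, 3031.9, 4748.1 and 2228.5 on SPI, 1460.9, 2312.1 and 626.0 on CAS and 984.8, 702.3 and 581.5 on GEN. SPI 5 lay below CAS 2, and without CAS 2 the probe set passed.

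**Figure D3:**
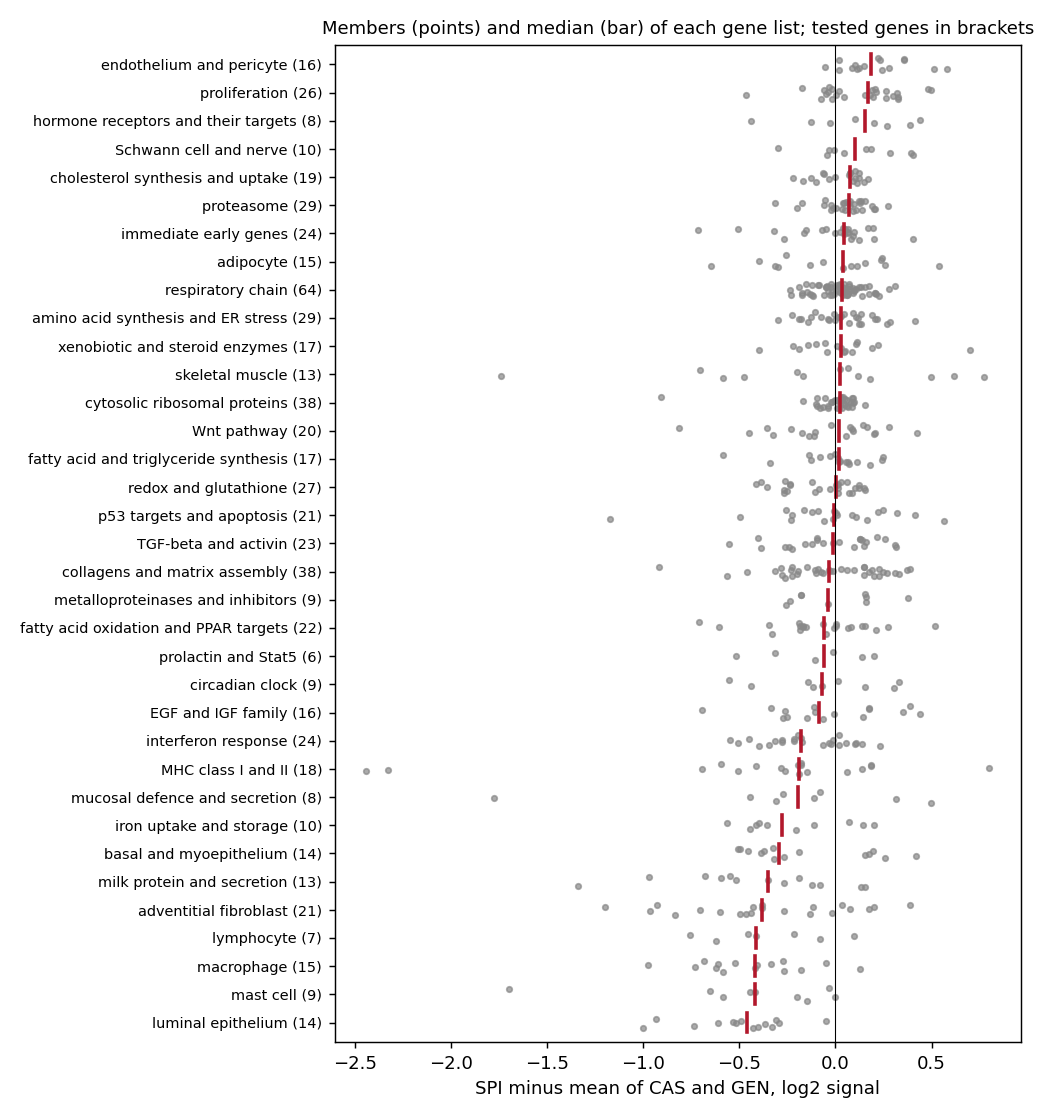
Log2 difference of SPI minus the mean of CAS and GEN for every tested member (points) and the median (bar) of 35 gene lists, with the number of tested genes in brackets. The luminal list has the lowest median, -0.46, with every point left of 0, and the endothelial list the highest, 0.19, with 15 of 16 points right of 0.

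Immune cell lists stood lower on SPI, more so against CAS than against GEN. Of 22 listed macrophage genes 15 were tested and 14 were lower. At an unadjusted p under 0.05 there were 2 lower, where 3.57% of all genes were. These were the lysosomal marker Cd68 (-0.62 ± 0.21 SE) and the lipopolysaccharide co-receptor Cd14 (-0.68 ± 0.26 SE). The list median was -0.42, made of -0.65 against CAS and -0.24 against GEN. It ran from -0.73 without CAS 2 to -0.26 without SPI 4. The mean log2 signal of the macrophage genes was 8.90 to 9.71 on SPI, 9.23 to 10.31 on CAS and 8.97 to 9.90 on GEN, so the diets overlapped.

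Of 15 listed mast cell genes 9 were tested and 9 were lower, with a median of -0.42. At an unadjusted p under 0.05 there were 3 lower, where 3.57% of all genes were. Hdc, which makes histamine, did not overlap, at 138.3 to 154.5 on SPI against 163.2 to 368.4 on the others. Tpsab1, a tryptase, stood at -1.70 ± 0.63 (SE), with 41.6, 103.2, 48.5 and 488.5 on SPI and 110.0 to 592.6 on the others, so that SPI 5 reached the level of the others. Without CAS 1 the mast cell median was -0.21, with 7 of 9 lower. Of 7 tested of 23 listed lymphocyte genes, 6 were lower with a median of -0.41 (-0.27 without SPI 4), led by the leukocyte genes Rac2 (-0.76 ± 0.22 SE) and Ptprc (-0.62 ± 0.25 SE), while the T cell kinase Lck stood at 0.10.

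The fibroblast and endothelial lists stood on different sides, while the lists of collagens and matrix assembly (median -0.03) and of adipocyte genes (0.04) stood near 0. Of 21 fibroblast genes, 16 were lower and 5 higher, with a median of -0.38. At an unadjusted p under 0.05 there were 5 lower and 1 higher, where 3.57% and 2.68% of all genes were. Beside Il17b these were Mfap5 (-0.96), Fndc1 (-0.93), Clec3b (-0.83) and Dcn (-0.71), all parts of the matrix or bound to it, and the 1 higher was Vim. The median was -0.51 against CAS and -0.16 against GEN. Fndc1 shows the form: 294.2 to 503.1 on SPI, 509.9 to 2502.2 on CAS and 473.2 to 521.2 on GEN. Without CAS 1 the fibroblast median was -0.21, and without SPI 3 it was -0.18.

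In the endothelial and pericyte list 15 of 16 tested genes were higher on SPI, with a median of 0.19 (0.18 against CAS and 0.17 against GEN). At an unadjusted p under 0.05 there were 2 higher, where 2.68% of all genes were. These were Vwf, the clotting factor that endothelium stores (0.58 ± 0.17 SE; adjusted p = 0.601, limma), and Cldn5, the endothelial claudin (0.52 ± 0.15 SE; adjusted p = 0.601, limma). Cldn5 had 1305.7, 1629.7, 2124.3 and 1494.1 on SPI, 939.2, 1326.1 and 1115.9 on CAS and 1321.8, 1058.2 and 1059.1 on GEN, with SPI 2 just below CAS 2 and GEN 1. SPI 4, the array with the lowest luminal mean, had the highest endothelial mean, 11.27. Without SPI 4, 12 of 16 were higher with a median of 0.16, and without SPI 4 and GEN 5, 13 of 16 with 0.12. With the actin ratio as a covariate it was 14 of 16 with 0.17.

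**Figure D4:**
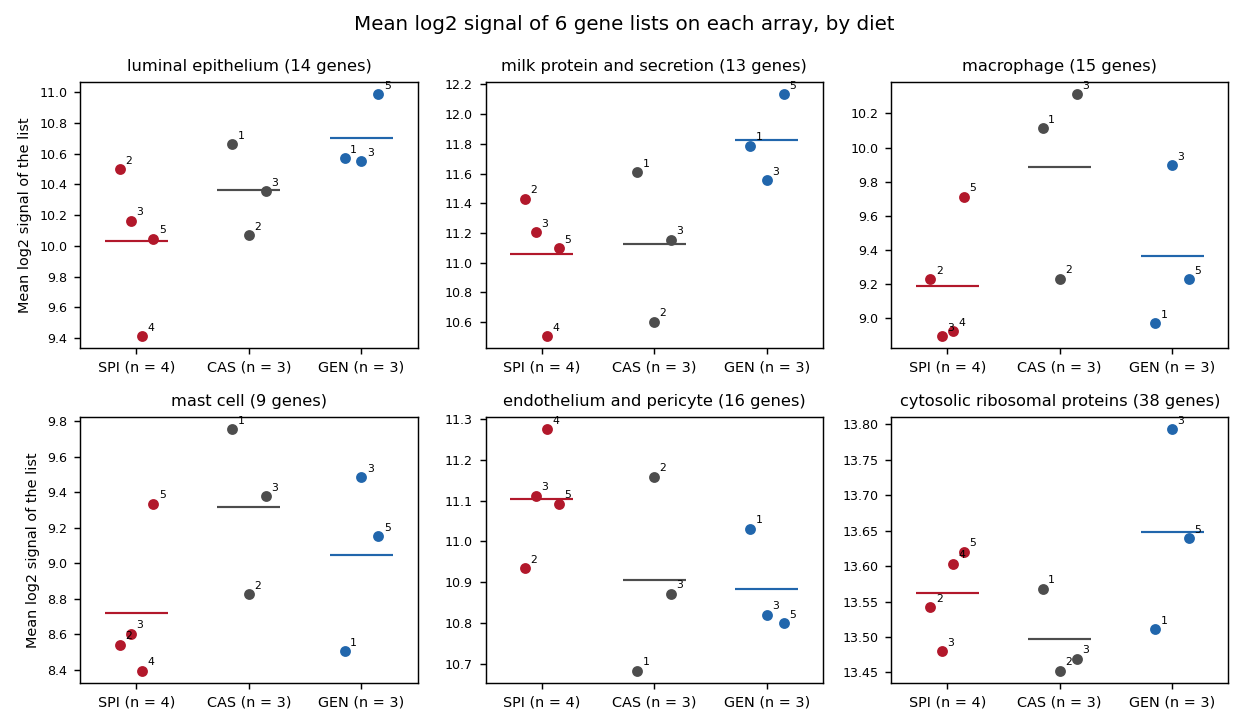
Mean log2 signal of 6 gene lists on each array, with points marked by array number and bars at the diet means. SPI 4 is the lowest array for the luminal list (9.41) and the highest for the endothelial list (11.27), and the diets overlap in the macrophage panel.

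Proliferation genes were higher on SPI in 17 of 26 tested cases, where 49.8% of all genes were. The median was 0.17, with 0.21 against CAS and -0.01 against GEN. At an unadjusted p under 0.05 there were 2 higher, where 2.68% of all genes were. The 2 were subunits of the replication helicase, Mcm4 (0.50 ± 0.13 SE; adjusted p = 0.568, limma) and Mcm6 (0.48 ± 0.18 SE). Mcm4 had 509.6, 617.9, 656.3 and 671.0 on SPI against 381.0 to 513.9 on the others, with 1 crossing at CAS 3. The mitotic genes Plk1 (-0.46) and Birc5 (-0.18) stood on the other side, and Mki67 at 0.26 and Pcna at 0.02. Without SPI 2 the list median was 0.04.

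Metabolic lists had medians near 0. Adipocyte genes were higher in 8 of 15 cases (median 0.04), fatty acid and triglyceride synthesis in 10 of 17 (0.02), cholesterol synthesis and uptake in 11 of 19 (0.07), amino acid synthesis and ER stress in 17 of 29 (0.03), redox and glutathione in 14 of 27 (0.00) and xenobiotic and steroid enzymes in 10 of 17 (0.03). Fatty acid oxidation genes were higher in 9 of 22 (-0.06). None of these lists had more than 2 members at an unadjusted p under 0.05 in 1 direction. Iron handling stood lower, in 7 of 10 with a median of -0.28, and the iron exporter Slc40a1 (-0.56 ± 0.22 SE) and the ferroxidase Heph (-0.40 ± 0.16 SE, and -0.24 without SPI 4) had an unadjusted p under 0.05.

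Single metabolic enzymes are given against each diet, with no test passed between the diets. Fasn, the fatty acid synthase, stood at -0.39 against CAS and -0.78 against GEN, and Pdk4, which holds back glucose oxidation, at -0.32 and -1.09. Acaa2, a thiolase of mitochondrial beta-oxidation, stood at -0.41 and -0.81, with 663.0 to 1135.7 on SPI, 1015.1 to 1301.5 on CAS and 1194.6 to 1841.4 on GEN. The hormone-sensitive lipase Lipe stood at 0.36 and 0.72.

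Signalling and matrix lists held few differences. The Wnt list had 10 of 20 higher (median 0.02), TGF-beta and activin 11 of 23 (-0.01), collagens and matrix assembly 17 of 38 (-0.03), metalloproteinases and inhibitors 4 of 9 (-0.04), Schwann cell and nerve 6 of 10 (0.10), skeletal muscle 7 of 13 (0.03), the respiratory chain 40 of 64 (0.03) and the proteasome 21 of 29 (0.07). The p53 targets were higher in 10 of 21 (-0.01), immediate early genes in 15 of 24 (0.05) and clock genes in 4 of 9 (-0.07). In the collagen list 4 genes were higher and 2 lower at an unadjusted p under 0.05, where 2.68% and 3.57% of all genes were. The higher were the basement membrane chains Col4a2 (0.31) and Col18a1 (0.33) and the microfibril chains Col6a2 (0.37) and Col6a3 (0.27). The lower were the matricellular protein Postn (-0.92) and P3h3. Rrad, a small GTPase of muscle, had the largest difference among these in the upward direction, 0.77 ± 0.18 (SE; adjusted p = 0.412, limma), with 1.01 against CAS and 0.54 against GEN. The clock factor Bmal1 stood at -0.55 ± 0.18 (SE), -0.56 against CAS and -0.55 against GEN, with 153.4 to 310.3 on SPI and 304.4 to 340.5 on the others.

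For some genes the pooled value hid opposite or 1-sided differences. Acvr2a, an activin receptor, stood at 0.32 pooled, but at -0.23 against CAS and 0.87 against GEN. Its signals were 276.7 to 325.2 on SPI, 311.2 to 433.8 on CAS and 151.8 to 182.0 on GEN, and GEN differed from CAS by -1.10 ± 0.18 (SE; adjusted p = 0.135, limma). P3h3, a collagen hydroxylase, stood at -0.56 pooled, with -1.05 against CAS and -0.07 against GEN. Bmp4, a ligand of the TGF-beta family, stood at 0.31 pooled, with 0.05 against CAS and 0.58 against GEN. For these genes SPI was not apart from both other diets.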

How the data were processed

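The values are Affymetrix RAE230 signal intensity, 1 value for a probe set and array, linear and deposited by the authors as a single table. Per the submitters' processing notes the software was MAS5 (version: not given in the sources used here). Arrays shared a trimmed mean of 500.1. From the 15923 probe sets, 57 controls were left out. Values under 1 (0.0637%) were set to 1 and log2 was taken. The lowest 40% by mean log2 signal were left out, and 9520 were tested.

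Symbols came from the platform annotation: 12783 probe sets had 1 symbol, 312 several and 2771 none. Identifiers of 12748 matched the gene table and 0 symbols changed. Promoters came from RefSeq (GRCr8).

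One limma 3.58.1 fit in R 4.3.3 (lmFit, eBayes with trend) held a mean for each diet over 10 arrays, with 7 residual degrees of freedom (12.9 with the prior). The contrast was SPI minus the mean of CAS and GEN, which equals pooling since both have 3 arrays. Benjamini-Hochberg adjustment ran over all tested probe sets at 0.05. The fit was tested on simulated data. Arrays were not paired by title number in the main fit. Deviations from the diet means correlated at -0.183 to 0.155 over 6 pairs of same-numbered arrays, and at -0.396 to 0.302 between differently numbered ones. With means of 3 or 4 arrays this cannot exclude a pairing.

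The comparison, the gene lists and the naming rule were chosen with earlier results of these data known. The rule took the 12 highest and 12 lowest differences past adjusted p 0.05 without overlap or, with fewer than 10, at unadjusted p under 0.01 (35 genes; 11 were higher). It added members of each list with the smallest p, Esr1, Esr2 and Pgr, and the 5 genes in each direction farthest from both diets. Alternatives were the floor, dim filter, scaling, moderation, array weights, a 2-group fit, the replicate block, the actin ratio and leaving out arrays.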

Additional observations from a re-analysis of the deposited data

Results flagged for a closer look

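Of 130 groups of 4 or 6 arrays examined, 10 held an array whose gap to the nearest other exceeded Dixon's 95% critical value, and chance alone would give about 1 in 20. Several bear on genes described above. For Il17b, CAS 2 measured 310.6 against 528.2 to 719.2 on the other CAS and GEN arrays. For Rpl37a, GEN 5 measured 12784.4 against 20008.7 to 25144.8. For RT1-Bb, SPI 2 measured 875.8 against 69.0 to 100.4 on the other SPI arrays. For Bcr, CAS 3 measured 3742.3 against 6220.1 to 8247.6, and for Otud4, GEN 1 measured 1329.5 against 1090.1 to 1130.0. Within SPI, Chrna1 was 151.9 on SPI 4 against 114.7 to 118.7, and Hyal3 was 269.5 on SPI 5 against 365.3 to 381.8.

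The mean log2 signal of the skeletal muscle list was 9.22 on SPI 5 against 8.99 to 9.03 on the other SPI arrays, and 9.77 on CAS 1 against 8.92 to 9.20 on the other CAS and GEN arrays. The actin of skeletal muscle, Acta1, was 1730.6 on CAS 1 and 32.3 to 307.6 elsewhere. The list of p53 targets and apoptosis genes had a mean of 9.31 on CAS 2 against 9.40 to 9.43.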

How the results depend on the processing

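The 1 adjusted call became 0 with no dim filter, with the lowest 20% or 60% left out (Reg3b was not tested at 60%), with quantile normalization, median centring, no moderation or the actin ratio as covariate, and 0 to 5 with 1 array left out. With both actin ratio extremes left out, an alternative chosen after seeing the data, the 1 call was Rpl37a. Main counts were 590 unadjusted, 243 higher, 347 lower, 95 not overlapping and 113 apart from both diets. Without a filter they included 988 unadjusted, 639 lower, 166 not overlapping and 207 apart from both, and with 60% left out 383, 179, 52 and 70. Median centring gave 471 higher and 208 lower. Leaving out both extremes gave 340 unadjusted, 141 higher, 199 lower, 260 not overlapping and 70 apart from both. With 1 array left out the counts ran from 378 (SPI 4) to 894 (SPI 5) unadjusted, 141 to 386 higher, 237 to 508 lower, 136 to 341 not overlapping and 69 to 218 apart from both. The causes were not tested. With the replicate block there were 0 adjusted, 256 unadjusted, 101 higher, 155 lower and 53 apart from both; the numbers are not a stated pairing. No value reversed its call. Of the values of named genes under alternatives, 3472 kept their side of the threshold, 7 passed newly and 15 no longer passed. All 15 were values of Reg3b, the only gene with a call to lose. The uncalled values of Stat5a, Herpud1 and Rps15a each turned sign in 1 of 23 alternatives. Of list medians, 779 moved by less than the spread between arrays and 26 by more. Dim signals limit Reg3b, RT1-CE16, RT1-Bb and the hormone receptors most.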
